A study of Mus musculus with 4 samples.

Results

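Expression of antiviral genes that type I interferon switches on was measured for Isg15, Usp18, Irf7, Ifit1, Ifit3, Oasl2, Rsad2, Bst2 and Ifitm3 by RNA-seq in differentiating female mouse embryonic stem cells (mESCs). They were chosen by name, as the 9 rows of the expression table that carry these gene symbols, out of 25965 genes listed. The cells were F1 hybrids of the FVB and CAST strains, and 4 libraries were made, 1 for each group. The day 0 library came from cells expanded in 2i medium. The other 3 libraries came from day 6 of differentiation, after a move into DME HiHi serum medium, retroviral delivery of a short hairpin RNA (shRNA) on day 2 and puromycin selection on day 3. The day 6 cells carried the non-silencing control hairpin Nons, or hairpin Smarca4.4 or Smarca4.6 against Smarca4, the gene for an ATPase of the BAF nucleosome remodelling complex. Day 6 cells thus differed from day 0 cells in differentiation, medium, virus, hairpin and drug at the same time, and the parts of these cannot be told apart. The genotype field of the labels names a Smarcc knockdown for every day 6 library, also for Nons, and a non-silencing control for day 0, so groups were taken from the sample titles.

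Interferons are secreted proteins that bind receptors on the cell surface, where the kinases JAK1 and TYK2 phosphorylate transcription factors of the STAT family. Together with IRF9 these form a complex that binds the interferon-stimulated response element in promoters and switches on antiviral genes. Cells make interferon after sensors detect foreign nucleic acid, such as the double-stranded RNA of a virus, and pluripotent stem cells are known for a weak response of this kind. The comparisons ask whether the antiviral genes differed between untransduced day 0 cells and hairpin-bearing day 6 cells, and whether they differed between hairpins.

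The hairpins are shown because they are what the 3 day 6 groups were given. Each line gives the 22-base guide strand as designed, 5′ to 3′, with the seed (bases 2 to 8) in capitals.
Nons: cTTACTCTcgcccaagcgagag
Smarca4.4: tTTATTACtgtctgactccagt
Smarca4.6: tTGCATAAtagtgttcatcagt
The Smarca4.4 guide was fully complementary to 22 bases in 3 of the 4 annotated Smarca4 transcripts, in exon 34 of 34 and outside the coding sequence (chr9:21703327-21703348, mm10). The Smarca4.6 guide matched all 4 transcripts, in coding exon 22 (chr9:21670504-21670525, mm10). No annotated transcript of the 9 genes held a full-length site for any of the 3 guides. Smarca4 itself was at 7.93 log2 CPM at day 0 and at 7.84 with hairpin Nons, 7.04 with Smarca4.4 and 7.44 with Smarca4.6.

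Gene positions are those of mm10. Values are CPM, reads scaled to the total of each library, from which whole reads were recovered. Depth was 18599402 reads at day 0 and 36495575 to 47143739 at day 6. A count of 0 allows a level of up to 3 reads, which is 0.161 CPM at day 0 and 0.0636 to 0.0822 CPM at day 6. There was 1 library per group, so the spread between replicates is unknown and p-values are not given. Where 3 day 6 values follow each other, they stand in the order Nons, Smarca4.4, Smarca4.6. Intervals are exact 95% intervals of the read counts of the libraries compared, and intervals and floors cover counting error only. Of the markers checked, the sum over 10 mESC genes was 3714 CPM at day 0 and 837 to 1111 CPM at day 6. A single gene held most of the day 6 sum, with 41880 of 48913 reads in Nons. In Nons 9 of the 10 were at least 2-fold lower than at day 0, beside 12.3% of all genes tested, with a median log2 difference of -4.86. The sum over 10 smooth muscle and fibroblast genes was 93.8 CPM at day 0 and 2083 to 3103 CPM at day 6. The part of these marker differences in the results was not tested. In these bulk samples fewer cells of a type and less RNA per cell cannot be told apart.

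Of the 9 genes, 5 had 0 reads at day 0 and at least 1 read in every day 6 library. Oasl2 had 1 read at day 0. Only Ifitm3, Bst2 and Rsad2 were above the floor at day 0, with 1713, 290 and 48 reads. Summed over the other 6 genes the level was 0.0538 CPM at day 0, 19.7 CPM in Nons, 24.4 CPM in Smarca4.4 and 25.4 CPM in Smarca4.6. The reads at day 0 in these 6 genes came to 1 in all.

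**Figure D1:**
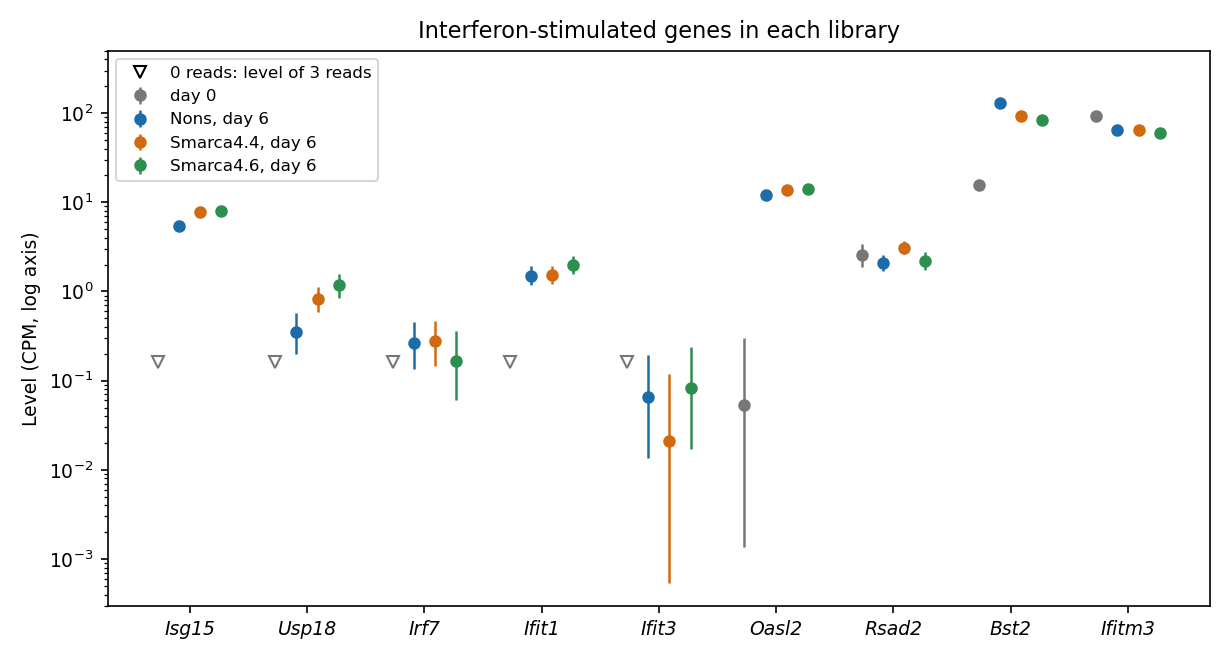
Level of each gene in each of the 4 libraries in CPM on a log axis, with exact Poisson 95% intervals as bars. Open triangles stand at the level of 3 reads where 0 reads were counted. Isg15, Usp18, Irf7, Ifit1 and Ifit3 had 0 reads at day 0, whereas Ifitm3 was highest there, at 92.1 CPM.

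Isg15 (chr4:156199424-156200818, minus strand), a ubiquitin-like protein that is conjugated to other proteins during infection, had 0 reads at day 0. It stood at 5.40 CPM in Nons (247 reads), 7.78 CPM in Smarca4.4 (367 reads) and 7.95 CPM in Smarca4.6 (290 reads). All 3 day 6 libraries were far above the day 0 floor, and at the Nons level 100.4 reads would have been counted at the depth of day 0. Against that floor Isg15 was 33.5-fold higher in Nons, 48.3-fold higher in Smarca4.4 and 49.3-fold higher in Smarca4.6. The exact intervals of the ratios to day 0, which hold the counting error of both libraries, began lower, at 27.0-fold, 39.1-fold and 39.8-fold.

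Usp18 (chr6:121245906-121270916, plus strand), the protease that removes ISG15 from its targets and that also dampens signalling at the interferon receptor, had 0 reads at day 0 and 16, 39 and 43 reads at day 6. The corresponding levels were 0.350, 0.827 and 1.18 CPM, so that both Smarca4 hairpins lay above Nons. The bounds against the day 0 floor were 2.17-fold, 5.13-fold and 7.30-fold. The exact intervals of the ratios began lower, at 1.57-fold, 3.98-fold and 5.69-fold. An opposite-strand gene model, Gm44148, overlaps 4.44% of the Usp18 exons, and the strand setting of the counting was not given in the sources used here.

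Irf7 (chr7:141262706-141266481, minus strand), a transcription factor that amplifies interferon production, was the lowest of the transcripts counted apart from Ifit3. It had 0 reads at day 0 and 12, 13 and 6 reads at day 6, or 0.262, 0.276 and 0.164 CPM. The bound against day 0 was 1.63-fold in Nons, 1.71-fold in Smarca4.4 and 1.02-fold in Smarca4.6, and in Smarca4.6 the interval of the ratio reached below 1. Phrf1, on the opposite strand, covers 1.19% of its exon bases.

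Ifit1 (chr19:34640871-34650009, plus strand), which binds viral RNA that lacks the methylation marks of host caps, had 0 reads at day 0 and 69, 73 and 73 reads at day 6. At 1.51, 1.55 and 2.00 CPM the 3 day 6 libraries lay close together, and at the Nons level 28.0 reads would have been counted at day 0. It was 9.35-fold higher in Nons, 9.60-fold higher in Smarca4.4 and 12.4-fold higher in Smarca4.6 than the day 0 floor. The exact intervals of these ratios to day 0 began at 7.40-fold, 7.61-fold and 9.83-fold. Its neighbour Ifit3 (chr19:34583531-34588731, plus strand), a binding partner of IFIT1, had 0 reads at day 0 and 3, 1 and 3 reads at day 6. Every library was therefore at or under the floor for Ifit3, and no fold is given. Of the 75-base stretches of the Ifit3 transcript 41.1% also occur in Ifit3b, so its reads could have been split or dropped, and 5.19% of those of Ifit1 occur in Ifit1bl2.

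Oasl2 (chr5:114896936-114912234, plus strand), a relative of the oligoadenylate synthetases, had 1 read at day 0 and 555, 655 and 511 reads at day 6. Its level was 0.0538 CPM at day 0 and 12.1, 13.9 and 14.0 CPM at day 6. The ratio of Nons to day 0 was 226, with an interval from 40.3 to 8926 that reflects the single day 0 read.

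Bst2 (chr8:71534264-71537437, minus strand), also called tetherin, which holds budding virus particles at the cell surface, was present in every library. It was at 15.6 CPM at day 0, 129 CPM in Nons, 93.4 CPM in Smarca4.4 and 83.7 CPM in Smarca4.6. Nons was the highest of the 4 libraries. Against day 0 Bst2 was 8.28-fold higher in Nons (7.36 to 9.35), 5.99-fold higher in Smarca4.4 and 5.37-fold higher in Smarca4.6.

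Ifitm3 (chr7:141009586-141010770, minus strand), a membrane protein that blocks the fusion of virus with endosomes, went the other way. It was at 92.1 CPM at day 0 and 64.9, 64.2 and 60.3 CPM at day 6. All 3 day 6 libraries were below day 0, at 70.5%, 69.7% and 65.5% of its level. On the log2 scale the difference of Nons from day 0 was -0.50 (-0.59 to -0.42).

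Rsad2 (chr12:26442753-26456452, minus strand), or viperin, which makes a chain-terminating nucleotide, was at 2.58 CPM at day 0 and 2.10, 3.10 and 2.22 CPM at day 6. The day 0 library lay within the range of the day 6 libraries. Log2 differences from day 0 were -0.30 (-0.81 to 0.23) in Nons and, with the Smarca4 hairpins, 0.26 (-0.22 to 0.77) and -0.22 (-0.75 to 0.33), so that no difference was detectable at this depth.

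Among genes with a mean of at least 0 log2 CPM over the 4 libraries, 5 of the 9 genes remained (Isg15, Oasl2, Bst2, Ifitm3 and Rsad2) of 13264 in all, and Usp18, Irf7, Ifit1 and Ifit3 were left out. In Nons against day 0, 3 of these 5 were at least 2-fold higher (Isg15, Oasl2 and Bst2) and 0 were at least 2-fold lower, where 19.6% of all genes tested were higher and 12.3% lower. The same 3 were higher and 0 lower in Smarca4.4 against day 0, beside 18.9% and 11.0% of all genes, and in Smarca4.6 against day 0, beside 19.3% and 11.3%. All 3 comparisons share the day 0 library. Isg15 and Oasl2 passed the filter through their day 6 levels alone, so these counts only describe the list. With a filter of at least 10 reads in either library, chosen after the data were seen, 6 of 8 were higher in Nons, 6 of 8 in Smarca4.4 and 5 of 7 in Smarca4.6, beside 24.6%, 24.4% and 24.0% of all genes. Genes at 0 reads were taken as deposited there, and Irf7, whose bound is under 2-fold, is among the 6. The median log2 difference over the 5 genes was 3.05 in Nons against day 0, and over the 8 genes with a value or a bound it was 2.08, beside 0.031 over all genes. That median rests on Isg15 and Oasl2, which had under 3 reads at day 0: without them it was -0.30, over 3 genes. In Smarca4.6 against day 0 the median over all genes was 0.11, a shift that is included in the values above.

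Levels of different genes were compared per kilobase of exon. In Nons the order was Bst2 at 143 CPM per kb, Ifitm3 at 95.8, Isg15 at 7.14, Oasl2 at 1.90, Ifit1 at 0.568, Rsad2 at 0.484, Usp18 at 0.125, Irf7 at 0.0694 and Ifit3 at 0.0376 CPM per kb. The intervals of Ifit1 and Rsad2 overlapped, as did those of Usp18 and Irf7 and those of Irf7 and Ifit3. At day 0 Ifitm3 led with 136 CPM per kb, followed by Bst2 at 17.3 and Rsad2 at 0.595 CPM per kb. In Smarca4.6 Bst2 at 92.7 CPM per kb (89.4 to 96.0) and Ifitm3 at 89.0 CPM per kb (85.3 to 92.7) did not differ beyond their intervals. Bst2 and Ifitm3 thus took the highest places in all 4 libraries, in the opposite order at day 0.

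Differences between the day 6 libraries were smaller. None of the 5 genes tested was at least 2-fold higher or lower in Smarca4.4 against Nons, where 0.882% of all genes were higher and 0.309% lower. The count was also 0 of 5 in each direction in Smarca4.6 against Nons, beside 1.03% higher and 0.799% lower. Usp18, which the filter on the mean leaves out, was past 2-fold with both hairpins, although both intervals reached below 2-fold. Its log2 difference from Nons was 1.24 (0.37 to 2.18) for hairpin Smarca4.4, and for hairpin Smarca4.6 it was 1.75 (0.90 to 2.68). Among all genes with at least 10 reads in either library 4.03% and 3.71% were at least 2-fold higher. The Usp18 values rest on 16 reads in Nons, and both hairpins are compared with the same Nons library.

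Isg15 was 1.44-fold higher than in Nons with Smarca4.4 (1.22 to 1.70) and 1.47-fold higher with Smarca4.6. Bst2 was lower with both, at 72.3% and 64.8% of its Nons level, with log2 differences of -0.47 (-0.52 to -0.41) and -0.63 (-0.69 to -0.56). Isg15 and Bst2, both higher at day 6 than at day 0, thus lay on opposite sides of Nons in both Smarca4 libraries. Oasl2 was above Nons by 0.20 (0.031 to 0.36) and 0.21 (0.031 to 0.38) on the log2 scale, but these intervals included 0 once the libraries were scaled by the median of all genes.

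Rsad2 was above Nons by 0.56 (0.18 to 0.95) in Smarca4.4, whereas in Smarca4.6 the log2 difference was 0.081 (-0.36 to 0.52). Ifitm3 differed from Nons by -0.017 (-0.091 to 0.057) with hairpin Smarca4.4 and by -0.11 (-0.19 to -0.027) with Smarca4.6. For Ifit1 the differences of 0.038 (-0.46 to 0.53) and 0.41 (-0.087 to 0.90) both had intervals that included 0. With 6 to 13 reads per day 6 library, Irf7 could have differed by over 2-fold either way between Nons and Smarca4.4 without being detected, with a log2 difference of 0.072 (-1.18 to 1.33), and in Smarca4.6 it was at -0.67 (-2.37 to 0.85). The median difference of the 5 genes was 0.20 in Smarca4.4 and 0.081 in Smarca4.6 against Nons, beside 0.038 and 0.064 over all genes.

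**Figure D2:**
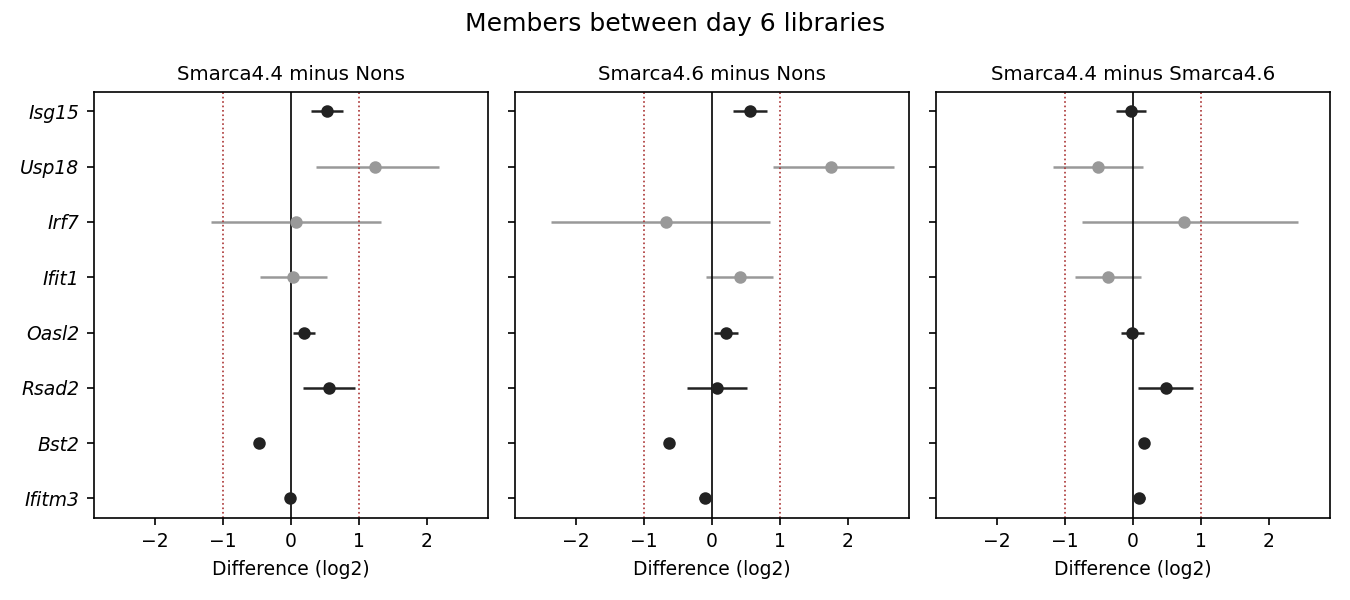
Log2 differences between day 6 libraries for 8 genes, with exact 95% intervals as bars and dotted lines at 2-fold. Black points mark genes that passed the filter on the mean and grey points those that did not; Ifit3 is left out because every library was at or under 3 reads. Isg15 lay right of 0 and Bst2 left of 0 with both hairpins, and Usp18 was past 2-fold with both.

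Between the Smarca4 hairpins, 0 of 5 genes were at least 2-fold apart, beside 0.415% of all genes higher in Smarca4.4 and 0.241% lower. Smarca4.4 was above Smarca4.6 by 0.48 (0.079 to 0.89) on the log2 scale for Rsad2, by 0.16 (0.091 to 0.23) for Bst2 and by 0.090 (0.010 to 0.17) for Ifitm3. Intervals included 0 for Isg15 at -0.030 (-0.26 to 0.20), Oasl2 at -0.011 (-0.18 to 0.16), Usp18 at -0.51 (-1.17 to 0.15), Ifit1 at -0.37 (-0.86 to 0.12) and Irf7 at 0.75 (-0.75 to 2.43). For Isg15 and Oasl2 these intervals reach to at most 0.26 on the log2 scale, for counting error alone. The spread between replicates could allow a larger difference.

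Interferon genes themselves were almost without reads. Of 21 ligand genes looked for, 19 were listed, and all 19 had 0 reads at day 0 and in Nons. Ifnb1, the interferon made first by most infected cells, had 0 reads in every library, which allows up to 0.0656 CPM in Nons. In Smarca4.4 Ifna13 had 5 reads, Ifnk 2 and Ifng 1, and in Smarca4.6 Ifna4 had 5 reads. The Ifna genes are near-identical copies, so which of them these reads came from is uncertain.

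Receptors and kinases were present throughout. All 9 listed passed the filter. In Nons 3 were at least 2-fold higher than at day 0 and 0 lower, beside 19.6% and 12.3% of all genes. Ifngr2, a chain of the interferon gamma receptor, was higher by 3.36 (2.62 to 4.22) on the log2 scale, Il10rb by 1.35 and Il28ra by 1.32. The type I receptor chains Ifnar1 and Ifnar2 were at -0.033 (-0.16 to 0.091) and 0.17 (-0.27 to 0.62). No gene of this list was past 2-fold between a Smarca4 hairpin and Nons. Among all genes 0.882% were higher and 0.309% lower in Smarca4.4, and 1.03% and 0.799% in Smarca4.6.

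Among the transcription factors, 4 of 9 tested were at least 2-fold higher in Nons than at day 0, beside 19.6% of all genes. Irf1, which is itself induced by interferon gamma, had 392 reads at day 0 and 4863 in Nons, a log2 difference of 2.33 (2.19 to 2.49). Irf2 and Irf8 were higher by 2.26 (1.54 to 3.07) and 1.24 (0.54 to 2.00). Irf9, the DNA-binding partner in the complex that acts on the interferon-stimulated response element, was lower, at -0.80 (-1.10 to -0.50). Stat2, of the same complex, and Irf3 were at 0.23 (0.048 to 0.41) and 0.76 (0.55 to 0.97).

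Sensors and adaptors were divided, with 4 of 11 tested at least 2-fold higher in Nons and 2 lower, beside 19.6% and 12.3% of all genes. Zbp1, a sensor of Z-form nucleic acid, had 3 reads at day 0 and 188 in Nons, and Myd88, the adaptor of most Toll-like receptors, was higher by 2.52 (1.83 to 3.30). Mavs, the adaptor of the cytoplasmic RNA sensors, was lower, at -1.98 (-2.12 to -1.84), as was the DNA sensor Aim2 at -3.84 (-4.29 to -3.42). Ifih1, a sensor of long double-stranded RNA that did not pass the filter on the mean, had 2, 46, 111 and 60 reads at day 0 and in the 3 day 6 libraries. It was above Nons by 1.23 (0.72 to 1.76) in Smarca4.4, and its levels in the 3 day 6 libraries were 0.0076, 1.24 and 0.72 log2 CPM. Tlr3, the endosomal sensor of double-stranded RNA, had 49, 94 and 85 reads at day 6, or 0.099, 1.00 and 1.22 log2 CPM. It was above Nons by 1.12 (0.60 to 1.66) in Smarca4.6 and by under 2-fold in Smarca4.4. Of the 11 tested, 1 was at least 2-fold higher than in Nons in Smarca4.6 and 0 in Smarca4.4, beside 1.03% and 0.882% of all genes. All 11 were above Nons by some amount in Smarca4.4 and 9 in Smarca4.6, where 56.5% and 58.9% of all genes were. Both counts share the Nons library. Of genes that the filter left out, Dhx58 (38 reads in Nons, 33 in Smarca4.4) and Tmem173 (4 and 1) were below Nons in Smarca4.4. Ifih1 and Tlr7 (1 and 4 reads) were above. Of all 16 listed, the interval included 0 for 8 in Smarca4.4 and for 6 in Smarca4.6.

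Enzymes of ISG15 conjugation did not all move with Isg15. Uba7, the activating enzyme, had 1, 21, 30 and 23 reads, and Herc6, the ligase, had 56, 711, 669 and 678 reads at day 0 and in the 3 day 6 libraries. Herc6 was thus higher in Nons by 2.37 (1.97 to 2.79) on the log2 scale. Ube2l6, the conjugating enzyme, was lower in Nons, at -1.71 (-2.12 to -1.31), and also had fewer CPM in the other day 6 libraries than at day 0, with 121, 91, 96 and 88 reads.

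Of the negative regulators, 1 of 9 tested was at least 2-fold higher in Nons (Socs1 by 1.11, 0.75 to 1.49) and 2 were lower (Ptpn6 at -2.30 and Socs3 at -2.17). Over all genes tested the shares were 19.6% higher and 12.3% lower. Between each Smarca4 hairpin and Nons 0 of 9 were past 2-fold. Over all genes 0.882% were higher and 0.309% lower in Smarca4.4, and 1.03% and 0.799% in Smarca4.6. Of NF-κB and inflammatory genes, 3 of 7 tested were at least 2-fold higher in Nons than at day 0 and 1 was lower, beside the same 19.6% and 12.3%. Nfkb2 was higher by 2.12 (1.91 to 2.33) and Icam1 was at -2.80 (-2.93 to -2.67). Tnf had 0 reads at day 0 and 80, 116 and 63 reads at day 6, and Cxcl1 had 0 reads at day 0 and 36, 85 and 65 reads.

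**Figure D3:**
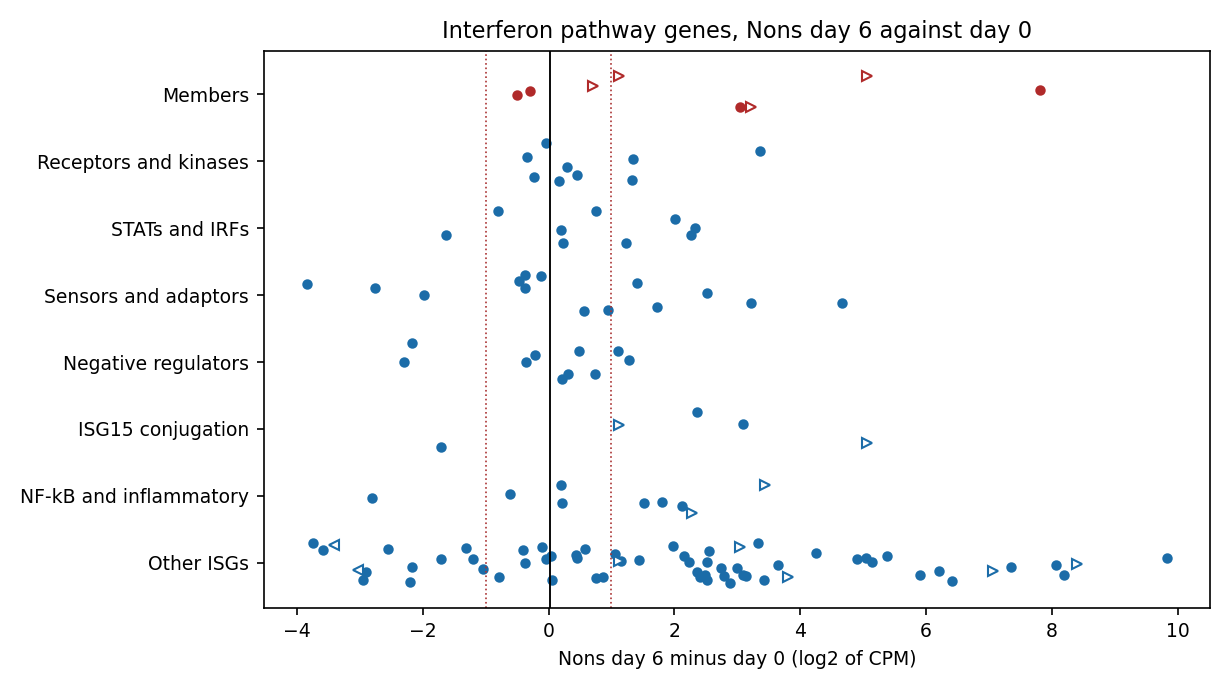
Log2 difference of Nons day 6 from day 0 for each gene with at least 10 reads in either library, grouped by role, with the 9 genes of the report as Members. Open triangles are bounds for genes with 0 reads in 1 library, the solid line is the median of all genes tested (0.031) and dotted lines mark 2-fold. Members and other interferon-stimulated genes (ISGs) lay on both sides of 0, most to the right.

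A list of 80 other interferon-stimulated genes was compared in the same way. It was chosen with earlier results of these data known, so its counts only describe the list. Of these 74 were listed in the table and 53 passed the filter. In Nons against day 0, 34 of 53 were at least 2-fold higher and 8 lower, beside the 19.6% and 12.3% of all genes, with a median of 2.41. Of these 53, 9 had under 3 reads at day 0 and so passed the filter through their day 6 levels. Without genes under 3 reads in either library 25 of 44 were higher and 8 lower, beside 18.6% and 12.5% of all genes. The families named next were grouped after their values were seen. All 10 genes of antigen processing were higher. On the log2 scale 9 of them differed by 2.52 (Psme1) to 5.38 (Tap2). The immunoproteasome subunit Psmb8 had 0 reads at day 0 and 2487 in Nons. Psmb8 was 8.40 above the day 0 floor on that scale, with an interval that began at 8.10. All 6 interferon-inducible GTPases with at least 10 reads were higher, such as Gbp2 with 2 reads at day 0 and 4471 in Nons. Parp9, Parp10, Parp12, Parp14 and Dtx3l were higher by 1.97 to 4.90.

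Relatives of the 9 genes and some other interferon-stimulated genes did not all share a direction. Ifit2, beside Ifit1 and Ifit3 on chromosome 19, had 1 read at day 0 and 181, 230 and 185 reads at day 6, and Cxcl10, a chemokine, had 1 read at day 0 and 717, 1370 and 643 at day 6. Of the oligoadenylate synthetase family, to which Oasl2 is related, 7 genes had at least 10 reads in either library. In Nons 1 of these 7 was at least 2-fold higher (Oas3 by 3.13, 2.45 to 3.90) and 4 were lower. With that filter 24.6% of all genes were higher and 15.3% lower. Oas1a had 500 reads at day 0 and 160 in Nons, and Oasl1 had 19 and 8, with log2 differences of -2.94 (-3.21 to -2.68) and -2.55 (-3.95 to -1.29). Ifitm2 was lower in Nons at -1.21 (-1.28 to -1.14) and Ifitm1 at -0.78 (-0.92 to -0.65), the same direction as Ifitm3. Mx1 had 104 reads at day 0 and 19 in Nons, a difference of -3.75 (-4.54 to -3.04), whereas Mx2 was at 1.44 (0.74 to 2.22). Oas1a and Oas1g are similar copies whose reads could have been shared, whereas 0.662% of the 75-base stretches of Ifitm3 occur in another gene, Gm7676.

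Against Nons, 0 of the 53 were at least 2-fold higher and 0 lower in Smarca4.4, with a median of -0.057. In Smarca4.6, 0 were higher and 1 was lower (Gbp3 at -1.04, -1.22 to -0.87), with a median of -0.089. Over all genes 0.882% were higher and 0.309% lower in Smarca4.4, and 1.03% and 0.799% in Smarca4.6. Between the hairpins, Xaf1 was the 1 gene past 2-fold, with 52 reads in Smarca4.4 and 14 in Smarca4.6. Of all genes 0.415% were higher in Smarca4.4 and 0.241% lower. Cxcl10 was above Nons by 0.89 (0.76 to 1.02) with hairpin Smarca4.4 and by 0.17 (0.013 to 0.33) with Smarca4.6. In Smarca4.6 that lower limit is smaller than the median difference of all genes, 0.064, a shift that is included in these values. The small differences of Isg15 and Bst2 between Nons and the Smarca4 hairpins thus stood beside a wider list that had 1 gene past 2-fold.

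Markers of blood cells, which respond strongly to interferon, were checked. Of 11 markers listed, 6 had 0 reads at day 0, and 4, 2 and 4 had 0 reads at day 6. Ptprc, the pan-leukocyte gene, had 0 reads in every library, and the macrophage marker Emr1 had 0 reads except for 3 in Smarca4.4. Summed over the 11, the level was 98.6 CPM at day 0 and 15.6 to 20.1 CPM at day 6, but 1 gene, Laptm5, made up most of the day 0 sum with 1554 reads. Without Laptm5, left out after its values were seen, the sum was 15.1 CPM at day 0 and 17.6, 18.7 and 15.4 CPM at day 6. Cd14 had 0 reads at day 0 and 28, 30 and 28 at day 6, Cd79a had 0 and then 17, 28 and 17, and Csf1r was at 7.74 CPM at day 0 and 8.59, 10.6 and 9.59 CPM at day 6. The part of these markers in the differences of the interferon-stimulated genes was not tested.

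The promoters of the 9 genes were examined for the response element. No sequence was used to choose them, but they were chosen as genes that interferon switches on, which it does through this element. An excess of matches is therefore not independent of the choice and only describes the genes. The element was searched as 2 copies of GAAA separated by 2 bases of any kind, on either strand and with overlapping matches counted, from 250 bases before to 50 bases after the RefSeq start (GRCm38.p6). Of the 9 genes 8 were in the promoter table, all except Usp18. Of these 8, 6 held at least 1 match and 5 held 2 or more, compared with 22 of 59 (37.3%) promoters of the other interferon-stimulated genes and 943 of 27025 (3.49%) of all promoters. When the second copy also had to be followed by C, 5 of 8 and 0.840% of all promoters held a match. No match was found in these windows for Irf7 and Oasl2. The stretches around the matches are shown for the 6 genes, since they are the part of each promoter that holds the element. They are written 5′ to 3′ on the strand of the gene, with matches in capitals, and a match on the other strand reads as TTTC.
Isg15: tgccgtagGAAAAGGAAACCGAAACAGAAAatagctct
Ifit1: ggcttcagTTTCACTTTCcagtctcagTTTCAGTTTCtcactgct
Ifit3: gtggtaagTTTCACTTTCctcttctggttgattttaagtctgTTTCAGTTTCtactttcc
Rsad2: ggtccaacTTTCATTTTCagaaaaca
Bst2: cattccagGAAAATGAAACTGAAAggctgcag
Ifitm3: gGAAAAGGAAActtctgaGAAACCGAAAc
They lie at chr4:156200867-156200904 (minus strand) for Isg15, chr19:34640777-34640821 (plus strand) for Ifit1, chr19:34583365-34583424 (plus strand) for Ifit3, chr12:26456555-26456580 (minus strand) for Rsad2, chr8:71537579-71537610 (minus strand) for Bst2 and chr7:141010715-141010743 (minus strand) for Ifitm3.

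In 5 of these genes the matches lay upstream of the start. Isg15 held 3 overlapping matches from 78 to 57 bases upstream (-78 to -57), and Bst2 held 2 overlapping matches at -130 to -115. Ifit1 and Ifit3 each held 2 separate matches, both on the other strand. In Ifitm3 both matches lay downstream of the RefSeq start, at 2 to 11 and 19 to 28. The genes with matches included those at 0 reads at day 0 (Isg15, Ifit1 and Ifit3), Rsad2, whose level at day 0 was within the day 6 range, and Ifitm3, which was lower at day 6. Oasl2, with 226 times its day 0 level in Nons, held none in this window. All 6 promoters of interferon-inducible GTPases in the table held a match, as did 4 of 5 in the oligoadenylate synthetase family. In that family 4 of 7 genes were at least 2-fold lower in Nons than at day 0. Among all genes with at least 10 reads in either library 15.3% were lower. Of the promoters of antigen processing genes, all 10 of which were higher in Nons, 2 of 9 held a match and 0 held 2 or more.

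**Figure D4:**
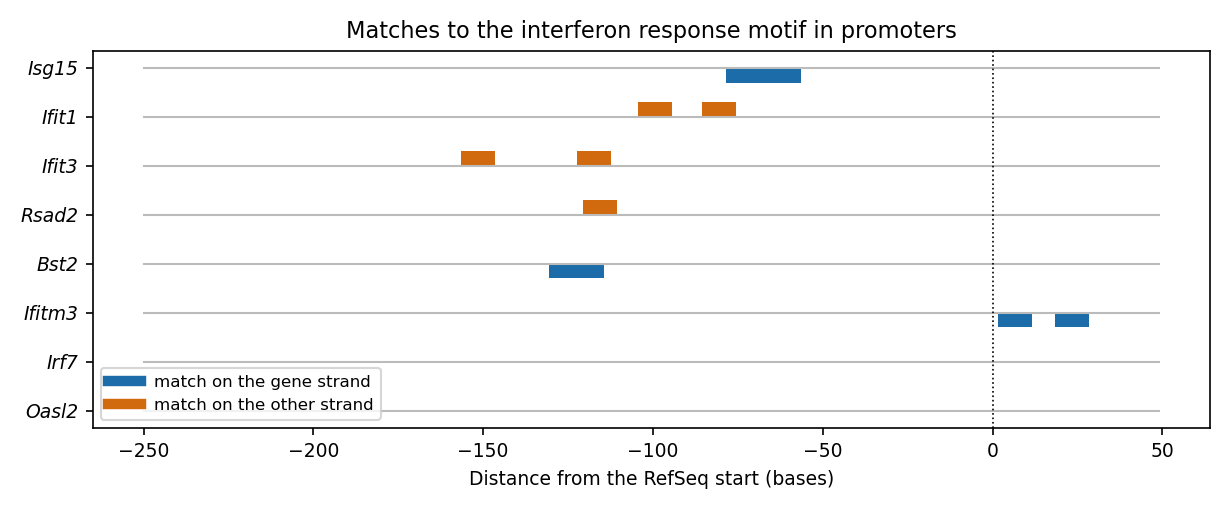
Position of each match in the 8 promoters, as the distance in bases from the RefSeq start (dotted line). Blue boxes are matches on the strand of the gene and orange boxes on the other strand; grey lines show the window searched. Matches lay between -156 and -57 in 5 genes and downstream of the start in Ifitm3, and Irf7 and Oasl2 had none.

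Profiles over the 4 libraries were compared for the 3 genes with at least 10 reads in each library, as the distance between log2 CPM values after the mean of each gene was subtracted. Among 13239 candidates the nearest to Ifitm3 was Ttc35 (distance 0.0205), the nearest to Bst2 was Podxl (0.0474) and the nearest to Rsad2 was Lrrc39 (0.0597). Podxl was at 5.17, 8.18, 7.70 and 7.59 log2 CPM at day 0 and in the 3 day 6 libraries, and Bst2 at 3.96, 7.01, 6.55 and 6.39. None of the 3 nearest genes belonged to the interferon lists, which hold only a small part of the 13239 candidates. With only the 1 nearest gene taken for each, no conclusion is drawn from this.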

How the data were processed

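RNA-seq was performed on 4 libraries, 1 per group. The authors trimmed the 75 bp paired-end reads with trim_galore, mapped them with hisat2 or tophat to mm10 with strain differences masked, and counted over exons in SeqMonk. The deposited values are log2 CPM, which the authors scaled to each library total and in which 0 reads were written as 0.9 of a read. Masked positions and both alleles were combined, so reads with many CAST differences may be under-counted. Since values were multiples of 1 step, whole reads were recovered (within 0.05 of a read for 99.94% to 99.98% of nonzero values and 100% up to 1000 reads).

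The 9 members and all lists were chosen with earlier results of these data known. Differences are between log2 CPM values as deposited, over 13264 genes with a mean of at least 0. With 1 library per group, called means at least 2-fold. Ratios have exact Clopper-Pearson 95% intervals. A fold against 0 reads is a bound against 3 reads, which leaves out the counting error of the other library. Named are the 9 members, up to 6 genes per list and comparison at least 2-fold apart with at least 10 reads, and fixed pathway genes; the gene families and a few others (such as Parp9, Parp12, Parp14, Dtx3l and Emr1) were chosen after values were seen. Some pathway genes are not reported here. Lengths and overlaps came from GENCODE M21 (GRCm38), promoters from RefSeq (GRCm38.p6) and guides from the study's oligo list. Scaling by trimmed mean of M values and by median of ratios was written out in Python. Computations were tested on simulated reads. The software was Python 3.11.15 (numpy 2.4.6 and pandas 2.3.3 for tables, scipy 1.17.1 for intervals, matplotlib 3.10.9 for figures). Alternatives were other filters, a pseudocount of 1 CPM, centring, both scalings, a 1.5-fold threshold, the longest transcript as length and a longer motif.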

Additional observations from a re-analysis of the deposited data

How the results depend on the processing

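No paired analysis was possible because a block needs more than the 1 library that every group has, and for the same reason no replicate could be left out. Counts below are of genes at least 2-fold apart, with the share of all genes under the same setting in parentheses. Without a filter, genes at 0 reads in both libraries can be called lower in the deeper library, because 0 was written as 0.9 of a read. For Nons against day 0, against 3 as reported, 6 members were higher without a filter (17.4%), 6 with at least 10 reads in either library (24.6%), an alternative chosen after seeing the data, 1 with a mean log2 CPM of at least 3 (13.5%) and 1 without genes under 3 reads (18.6%), where the median became -0.30. Smarca4.4 against day 0 gave 6 (17.4%), 6 (24.4%), 1 (12.6%) and 1 (17.9%) in the same order, and Smarca4.6 against day 0 gave 6 (17.4%), 5 (24.0%), 1 (13.0%) and 1 (18.3%), with 1 lower at 1.5-fold (Ifitm3, 19.2%). Usp18 was the 1 member higher than in Nons without a filter (5.21% in Smarca4.4 and 4.94% in Smarca4.6) and with at least 10 reads (4.03% and 3.71%). Ifit3, at or under 3 reads in every library, made up the count of 1 lower without a filter in Smarca4.4 against day 0, Nons and Smarca4.6, which is no measured difference. At 1.5-fold, 1 member (Bst2) was lower in Smarca4.6 than in Nons (3.83%).

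With a mean of at least 3, which leaves Ifitm3 and Bst2, the median was -0.24 for Smarca4.4 and -0.37 for Smarca4.6 against Nons, and without a filter it was -0.011 between the hairpins. Centring, trimmed mean of M values and median of ratios turned the sign of Isg15 (0.00093, 0.0063 and 0.0042) and Oasl2 (0.019, 0.025 and 0.023) between hairpins, and the last 2 that of Ifit1 in Smarca4.4 against Nons (-0.0042 and -0.00080), all inside their intervals.

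Of the other interferon-stimulated genes, 21 were called lower in Nons than at day 0 without a filter (41.8%), 6 of them at or under 3 reads in both libraries. With at least 10 reads 13 were lower (15.3%), and a mean of at least 3 gave 19 higher (13.5%) and 4 lower (9.70%). In Smarca4.4 against Nons there were 3 higher (5.21%) and 3 lower (3.51%) without a filter, and 1 (4.03%) and 1 (2.02%) with at least 10 reads. At 1.5-fold there were 4 higher (4.03%) and 1 lower (2.37%), and with either scaling 1 was lower (0.354%). In Smarca4.6 against Nons 2 were lower without a filter (3.87%), and 0 with a mean of at least 3 (0.218%) or log2(CPM + 1) (0.286%). With centring (1.03%), trimmed mean of M values (1.09%) or median of ratios (1.07%) 3 were lower. At 1.5-fold 6 were lower (3.83%) and 1 was higher (5.68%). Between hairpins 4 were higher and 2 lower without a filter, 0 higher with a mean of at least 3 or log2(CPM + 1), 5 higher at 1.5-fold and 1 lower with at least 10 reads. Filters change which genes are tested; the cause of other moves was not tested. The longest transcript left 4 of 9 members at 1 CPM per kb or more in Nons. Depth limits the values of Irf7, Usp18 and Ifit3, which had at most 43 reads in any library.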
